A study of Arabidopsis thaliana with 27 samples.

Results

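The genes for 9 proteins that work in the nucleolus on ribosomal RNA and on the small nucleolar ribonucleoprotein particles (snoRNPs) that modify it were followed at the transcript level in leaves of *Arabidopsis thaliana*. They were chosen by locus identifier, as 9 of the 34218 genes in the deposited table, and all 9 were abundant enough to be among the 18785 genes tested. Leaf RNA was sequenced in 27 samples, 3 for each of 9 groups made by 3 genotypes and 3 water treatments. The genotypes were WT (Col-0), *GC::AtTOR*, in which a guard cell promoter from tobacco drives the *Arabidopsis* TOR coding sequence, and *35S::AtTOR*, in which the CaMV 35S promoter drives it throughout the plant. Well-watered plants received water throughout. Drought plants had water withheld for 11 days from 27 to 38 days after germination (DAG). Re-watered plants had the same drought and were then watered again for 4 days, so they were older than drought plants. The labels do not give the age of the well-watered plants, so age and water treatment cannot be told apart. All samples are leaf of the Col-0 background and carry the same batch label. Homozygous lines of 1 construct were combined by the study, and the labels do not say which line or how many plants gave a sample. Guard cells are a small part of a leaf, so a change inside them alone would be diluted here. In bulk leaf RNA, fewer cells of a type and less RNA per cell cannot be told apart.

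Ribosomes begin in the nucleolus, where RNA polymerase I copies the ribosomal RNA genes into a long precursor that is cut, folded and chemically modified while ribosomal proteins join it. Guide RNAs in snoRNPs of the C/D box class direct methylation of the precursor, and those of the H/ACA box class direct its pseudouridylation. TOR (target of rapamycin) is a protein kinase known in plants and other eukaryotes for promoting ribosome production when nutrients and energy suffice.

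As a check of the labels, *TOR* (AT1G50030) had 1128 to 1250.1 normalized counts in well-watered WT, 1144 to 1254 in well-watered *GC::AtTOR* and 9229 to 14649 in well-watered *35S::AtTOR*. The *35S::AtTOR* leaves thus carried the transgene visibly, while the level in *GC::AtTOR* did not tell that line from WT (log2 difference −0.01 ± 0.16, limma adjusted p = 0.990). Whole reads recovered from the table numbered 2739872 in the first replicate of re-watered *35S::AtTOR* and 10385851 to 16707106 in the other samples where they could be recovered. In that shallow library 1 read equals 4.13 normalized counts, against 0.797 to 1.2 elsewhere. Counts of members that include it are also given without it below. The leaf mesophyll markers *RBCS1A*, *CAB1* and *RCA* summed to 94873 or more normalized counts in every sample.

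The first pair are nucleolins, which bind ribosomal RNA genes and precursor RNA: *NUC-L1* (AT1G48920, chromosome 1, 18098081 to 18101732) and its paralog *NUC-L2* (AT3G18610, chromosome 3, 6404053 to 6407946). *FIB1* (AT5G52470, chromosome 5, 21294147 to 21296819) and *FIB2* (AT4G25630, chromosome 4, 13074090 to 13076432) encode fibrillarin, the methyltransferase of C/D box snoRNPs. *NOP56* (AT1G56110, chromosome 1, 20984273 to 20986952) encodes a core protein of the same particles. AT5G27120 (chromosome 5, 9540861 to 9544065) and AT3G05060 (chromosome 3, 1412867 to 1416056) are called NOP58-like here, after the partner core protein of NOP56, which their RefSeq gene notes name, although RefSeq gives both products as NOP56-like. *APUM24* (AT3G16810, chromosome 3, 5723222 to 5727664) is a nucleolar Pumilio RNA-binding protein needed for processing of the ribosomal RNA precursor. *CBF5* (AT3G57150, chromosome 3, 21153815 to 21156075) encodes the pseudouridine synthase of H/ACA box snoRNPs. Positions are those of the RefSeq annotation of TAIR10.1. *FIB1* and *FIB2* each contain an annotated snoRNA gene, and *NUC-L1* and *NOP56* overlap a protein-coding gene on the opposite strand by 90 and 130 bases, so a share of their reads may be uncertain.

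Per kilobase of transcript, the levels in well-watered WT leaves spanned a wide range. *NUC-L1* stood highest at 2301 ± 13.4 normalized counts per kilobase (SD, n = 3), followed by *FIB1* at 951 ± 50.6 and *NOP56* at 560.0 ± 15.6. *CBF5* had 327 ± 7.93, AT3G05060 had 280.5 ± 6.19 and AT5G27120 had 164 ± 12.5 normalized counts per kilobase. *FIB2* at 147 ± 3.52, *APUM24* at 109 ± 10.3 and *NUC-L2* at 17.3 ± 4.91 normalized counts per kilobase were the lowest. The means of AT5G27120 and *FIB2* lay closest together, and *NUC-L2* stood far below the rest. In each paralog pair 1 gene was therefore the main source of transcripts in unstressed leaves: *NUC-L1* over *NUC-L2*, *FIB1* over *FIB2*, and AT3G05060 over AT5G27120.

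Sequence upstream of 6 members is shown because it separates paralogs that were described side by side, and because genes of ribosome biogenesis in plants often carry telo boxes and site II elements near their start. The searched letters were AAACCCT for the telo box and TGGGCC or TGGGCT for site II, on both strands, in the 250 bases before the annotated start, and no matches in the members overlapped. Capitals mark matches and the sequences run 5′ to 3′ along the gene, cut where a neighbouring gene begins. They come from RefSeq TAIR10.1 at chr1:18097831-18098080, plus strand (*NUC-L1*), chr3:6407947-6408196, minus strand (*NUC-L2*), chr5:21293897-21294146, plus strand (*FIB1*), chr4:13073840-13074089, plus strand (*FIB2*), chr1:20986953-20987127, minus strand (*NOP56*) and chr5:9540667-9540860, plus strand (AT5G27120).
NUC-L1: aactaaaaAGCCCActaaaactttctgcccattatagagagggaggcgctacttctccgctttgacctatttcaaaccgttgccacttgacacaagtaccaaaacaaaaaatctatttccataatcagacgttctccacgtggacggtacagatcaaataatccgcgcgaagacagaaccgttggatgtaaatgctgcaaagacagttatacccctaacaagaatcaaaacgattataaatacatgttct
NUC-L2: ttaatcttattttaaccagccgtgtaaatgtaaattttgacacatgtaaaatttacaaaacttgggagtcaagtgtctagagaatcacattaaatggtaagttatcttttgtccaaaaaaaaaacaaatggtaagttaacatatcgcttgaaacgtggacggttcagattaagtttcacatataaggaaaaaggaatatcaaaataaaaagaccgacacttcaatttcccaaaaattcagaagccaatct
FIB1: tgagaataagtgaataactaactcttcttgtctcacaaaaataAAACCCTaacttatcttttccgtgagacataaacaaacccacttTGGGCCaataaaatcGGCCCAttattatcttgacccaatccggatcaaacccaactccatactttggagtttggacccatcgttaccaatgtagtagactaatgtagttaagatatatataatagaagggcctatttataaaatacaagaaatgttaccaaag
FIB2: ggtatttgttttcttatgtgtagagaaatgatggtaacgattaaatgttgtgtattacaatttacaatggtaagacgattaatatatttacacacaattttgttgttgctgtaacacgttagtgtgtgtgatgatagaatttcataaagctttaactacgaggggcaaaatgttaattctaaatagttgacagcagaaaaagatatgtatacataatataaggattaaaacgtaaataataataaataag
NOP56: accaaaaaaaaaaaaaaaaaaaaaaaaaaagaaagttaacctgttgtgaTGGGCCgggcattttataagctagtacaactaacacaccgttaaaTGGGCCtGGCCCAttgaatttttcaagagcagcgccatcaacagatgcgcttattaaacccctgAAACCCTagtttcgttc
AT5G27120: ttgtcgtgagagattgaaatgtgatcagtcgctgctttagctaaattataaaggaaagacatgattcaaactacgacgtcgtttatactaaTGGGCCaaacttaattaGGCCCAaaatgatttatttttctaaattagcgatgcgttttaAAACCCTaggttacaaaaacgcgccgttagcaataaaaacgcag

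The telo box was found in 3 of 9 members, *FIB1* at −207, *NOP56* at −17 and AT5G27120 at −44, counting back from the start, against 7.33% of 27443 promoters. Site II was found in 6 of 9, against 19.2% of promoters: *NUC-L1*, *FIB1*, *NOP56*, AT5G27120, AT3G05060 and *CBF5*. For AT3G05060 only 18 bases of the window lie free of the neighbouring gene, and its match at −21 runs into that gene. The 3 genes with a telo box held both motifs, as did 2.08% of all promoters. No match lay in the windows of *NUC-L2*, *FIB2* and *APUM24*. The nucleolin pair and the fibrillarin pair therefore differ in these letters, with matches before *NUC-L1* and *FIB1* and none before *NUC-L2* and *FIB2*. A match is a description of the window and not evidence of a site in use. Coding sequences were 74% identical over the aligned bases between *NUC-L1* and *NUC-L2*, 84.8% between *FIB1* and *FIB2* and 82.8% between AT5G27120 and AT3G05060, so reads shared within a pair may have been split between its genes.

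**Figure D1:**
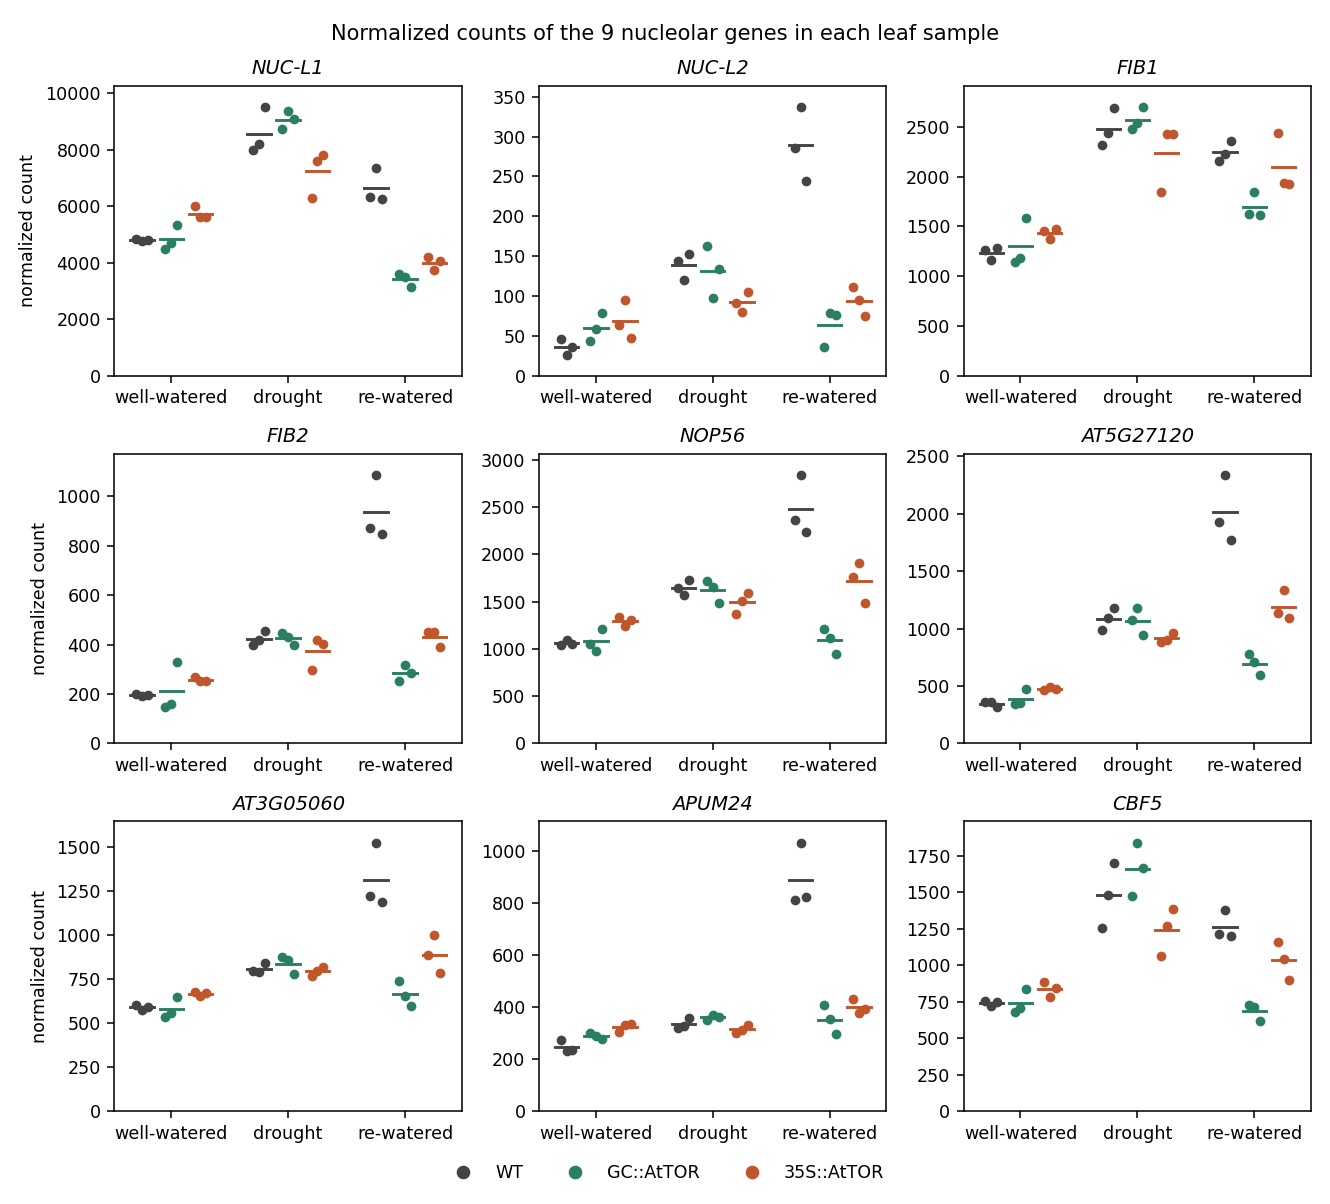
Normalized counts (vertical axis, from 0, separate scale per gene) of each gene in the 3 samples of each genotype (colours) under each water treatment (horizontal axis), with a bar at each group mean. In WT, 6 genes reached their highest levels after re-watering, led by *NUC-L2* at 244 to 337, while *NUC-L1* was higher under drought and *FIB1* and *CBF5* did not differ past the threshold between drought and re-watering.

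Transcripts of all 9 genes rose under drought in WT and in *GC::AtTOR*, and fewer passed the test in *35S::AtTOR*. In WT the nucleolin paralog *NUC-L2* and the NOP58-like gene AT5G27120 rose most, 3.86-fold and 3.13-fold, while the fibrillarins *FIB1* and *FIB2* and the pseudouridine synthase gene *CBF5* rose 2.00-fold, 2.14-fold and 1.98-fold. Fold changes here are powers of 2 of differences in log2(normalized count + 1), which understates the change of low genes, and calls were made by limma at a Benjamini-Hochberg adjusted p under 0.05 over all genes tested. By this rule 9 of 9 members were higher in drought than in well-watered WT leaves, against 23.9% of all genes tested. In *GC::AtTOR* 9 of 9 were higher, against 27.2% of all genes, and in *35S::AtTOR* 4 of 9, against 11.8%. The median log2 fold change of the 9 members stood at 0.99 for WT, 1.00 for *GC::AtTOR* and 0.47 for *35S::AtTOR*, beside −0.03, −0.03 and −0.01 over all genes.

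*NUC-L1* had 4838, 4783 and 4802 normalized counts in well-watered WT and 7989.5, 8216 and 9502 under drought. In *GC::AtTOR* it had 4493, 4699.7 and 5345 when well-watered and 8733, 9355 and 9088 under drought. In *35S::AtTOR* it had 6001, 5615 and 5611 when well-watered and 6289.8, 7594 and 7826 under drought. The drought samples lay above all well-watered samples in each genotype, with the narrowest gap in *35S::AtTOR*. The log2 fold change was 0.83 ± 0.10 (SE) for WT, 0.91 ± 0.10 for *GC::AtTOR* and 0.33 ± 0.10 for *35S::AtTOR* (limma adjusted p = 1.28e-06, 2.92e-07 and 0.0231). The last of these calls was lost without *35S::AtTOR* well-watered replicate 2 or 3 or drought replicate 2 or 3, with an adjusted p of 0.0661 to 0.115.

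AT5G27120 had 359, 363 and 316 normalized counts in well-watered WT and 986, 1092 and 1179 under drought. The groups were far apart, and the log2 fold change was 1.65 ± 0.13 (limma adjusted p = 3.35e-09). Under drought it had 1072, 1179 and 943 normalized counts in *GC::AtTOR*, and *35S::AtTOR* had 887, 902 and 958, above the well-watered samples of each line. Its annotated paralog AT3G05060 moved less, from 603, 577 and 592 normalized counts in well-watered WT to 799, 788 and 840.4 under drought, a log2 fold change of 0.45 ± 0.10 (limma adjusted p = 7.35e-04). *CBF5* went from 754, 719 and 746 normalized counts in well-watered WT to 1257, 1481 and 1702 under drought, and *NOP56* from 1039, 1097 and 1055 to 1642, 1568 and 1733. Both moved without overlap between groups.

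The 5 members that did not pass the test under drought in *35S::AtTOR* were *NUC-L2*, *FIB2*, *NOP56*, AT3G05060 and *APUM24*, with log2 fold changes from −0.04 to 0.52. *FIB2* came closest, with 267, 255 and 252 normalized counts in well-watered and 299, 419.8 and 402 in drought leaves (limma adjusted p = 0.0522). With the study's thresholds for a differentially expressed gene (DEG), which add a log2 fold change above 1, 4 of 9 members were DEGs under drought in WT, against 7.61% of all genes.

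After 4 days of re-watering, the members had not returned to their well-watered levels in WT. *NUC-L2*, AT5G27120, *FIB2* and *APUM24* stood 7.97-fold, 5.78-fold, 4.69-fold and 3.57-fold above well-watered leaves, and all 9 members were higher, against 31.7% of all genes. The median log2 fold change over the members was 1.21, beside 0.02 over all genes. As DEGs, 6 of 9 were higher, against 14.4% of all genes. Between drought and re-watered WT leaves, 6 of 9 members rose further, against 30.8% of all genes, and *NUC-L1* fell, as did 29.5% of all genes, while *FIB1* and *CBF5* did not pass the test. These comparisons within a genotype share their well-watered, drought or re-watered samples.

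*APUM24* rose little under drought and more after re-watering. In WT it had 274, 232 and 235 normalized counts when well-watered, 321, 327 and 360.2 under drought and 812, 1032 and 823 after re-watering. The drought samples lay just above the well-watered ones and the re-watered samples far above both. The log2 fold change against drought was 1.39 ± 0.11 (limma adjusted p = 2.63e-10).

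*FIB2* had 202, 193 and 197 normalized counts in well-watered WT, 399, 417 and 456 under drought and 873, 1086 and 847 after re-watering, so each treatment lay above the one before it. Its paralog *FIB1* had 1262, 1162 and 1286 in well-watered WT, 2315, 2441 and 2693 under drought and 2154, 2228 and 2356 after re-watering. The re-watered and drought samples of *FIB1* overlapped, and their log2 difference was −0.14 ± 0.12 (limma adjusted p = 0.318). *NUC-L2* rose from 46.2, 25.7 and 36.3 normalized counts in well-watered WT to 144, 120.2 and 153 under drought and 286, 337 and 244 after re-watering, while *NUC-L1* fell from its drought level to 6332, 7361 and 6249. In WT the less abundant nucleolin and fibrillarin genes were thus at their highest after re-watering, and *NUC-L1* under drought.

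AT5G27120 reached 1927, 2337 and 1772 normalized counts in re-watered WT, and AT3G05060 reached 1224, 1525 and 1186. *NOP56* had 2362, 2839.7 and 2238 and *CBF5* had 1214, 1377 and 1197 normalized counts. For the NOP56 and NOP58-like genes, re-watered WT was the highest of the 9 groups and did not overlap the next. WT re-watered replicate 2 had the highest value of its group in 8 of 9 members. Without it, 9 of 9 members were still called higher than in well-watered WT.

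**Figure D2:**
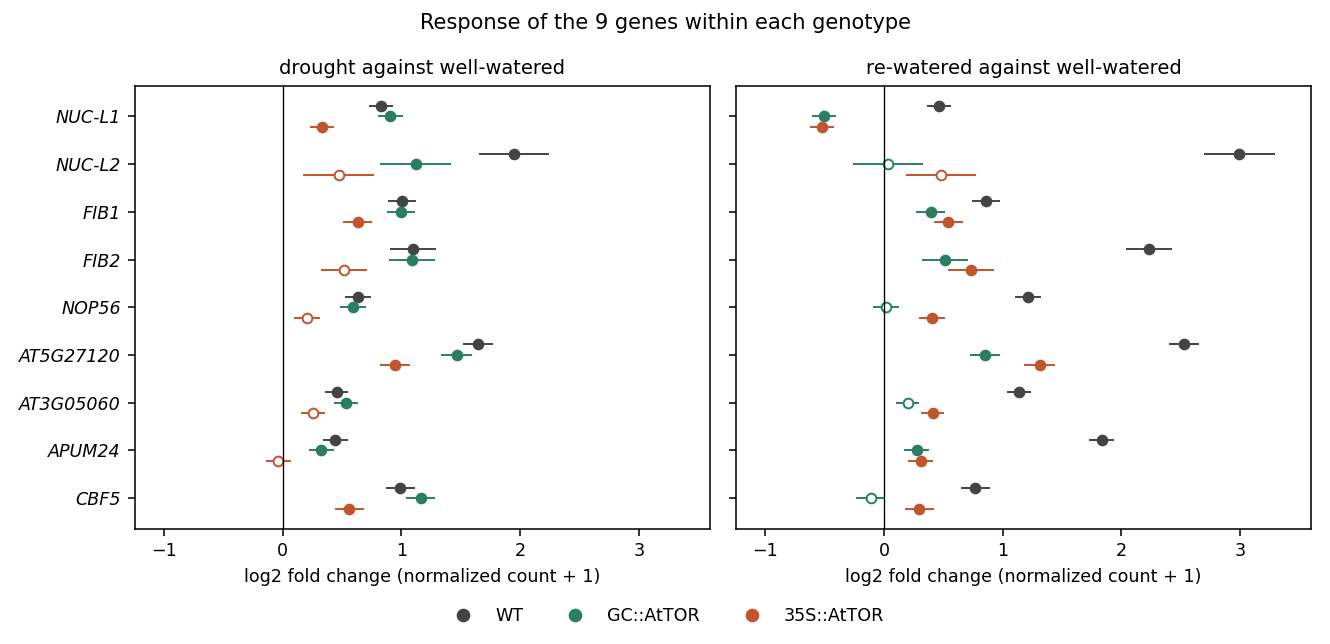
Log2 fold change of normalized count + 1 (horizontal axis) with its standard error for each gene (vertical axis) in each genotype (colours), under drought (left) and after re-watering (right) against well-watered leaves. Filled points passed the limma test at an adjusted p under 0.05 and open points did not. After re-watering WT lies right of both lines for every gene, from 0.46 for *NUC-L1* to 2.99 for *NUC-L2*.

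In the *AtTOR* lines the re-watered levels lay closer to the well-watered ones. In *GC::AtTOR* 4 of 9 members were higher than in well-watered leaves, against 21.4% of all genes, and *NUC-L1* was lower, as were 21.3% of all genes. In *35S::AtTOR* 7 of 9 were higher, against 25.6% of all genes, and *NUC-L1* was lower, against 26.9%. The median log2 fold change over the members was 0.20 for *GC::AtTOR* and 0.41 for *35S::AtTOR*, beside 0.02 and −0.0019 over all genes. The 4 higher in *GC::AtTOR* were *FIB1*, *FIB2*, AT5G27120 and *APUM24*. Leaving out 1 library at a time gave 2 to 5 members called in either direction, with *NUC-L1* among them as lower. The count was 2 without *GC::AtTOR* well-watered replicate 1 or 2 or without re-watered replicate 2, since *FIB1*, *FIB2* and *APUM24* then missed the threshold. Of the members, only AT5G27120 was then called higher, and *NUC-L1* was called lower. Without the shallow library, 6 members were called in *35S::AtTOR*, with *NUC-L1* among them as lower, since *APUM24* and *CBF5* then missed the threshold.

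*NUC-L1* fell below its well-watered level in both lines, to 3607, 3492 and 3141 normalized counts with the guard cell promoter and 4199, 3744 and 4057 with the 35S promoter. These were the lowest values of the gene in any group. Its log2 fold change against well-watered leaves was −0.50 ± 0.10 for *GC::AtTOR* and −0.52 ± 0.10 for *35S::AtTOR* (limma adjusted p = 4.41e-04 and 2.33e-04). AT5G27120 stayed above its well-watered level in both, with 778, 713 and 597 normalized counts for *GC::AtTOR* and 1132, 1332 and 1089.9 for *35S::AtTOR*. *CBF5* had 725, 713 and 616 normalized counts in re-watered *GC::AtTOR*, within or below the 677 to 835 of its well-watered samples.

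From drought to re-watering, 8 of 9 members fell in *GC::AtTOR*, against 29.3% of all genes, with a median log2 fold change of −0.60 over the members. The call of *FIB2* was lost without *GC::AtTOR* re-watered replicate 1 (adjusted p = 0.0577). *NUC-L1* fell most, by 1.41 ± 0.10 on the log2 scale, and *CBF5* fell by 1.27 ± 0.12 (limma adjusted p = 2.17e-10 and 1.34e-08). *APUM24* was the member that did not pass, with 349.7, 371 and 364 normalized counts under drought and 407, 353 and 297 after re-watering. In *35S::AtTOR*, *NUC-L1* fell, against 26.3% of all genes, and AT5G27120 and *APUM24* passed as higher, 2 of 9 members against 26.2% of all genes. The call of AT5G27120 was lost without *35S::AtTOR* drought replicate 1 or 2 or re-watered replicate 2 (adjusted p 0.0501 to 0.107). Without the shallow library 4 members were called in *35S::AtTOR*, since *CBF5* then passed as lower.

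The main difference between genotypes lay in re-watered leaves. In these leaves, genotype and survival of drought, which the study reports to differ between WT and the lines, cannot be told apart. Compared with WT, *GC::AtTOR* had lower levels of 9 of 9 members, against 20.9% of all genes, and *35S::AtTOR* of 7 of 9, against 19.6%. The median log2 difference over the members was −1.18 for *GC::AtTOR* and −0.73 for *35S::AtTOR*, beside 0.01 and 0.02 over all genes. As DEGs, 5 of 9 were lower in *GC::AtTOR*, against 6.35% of all genes, and 3 of 9 in *35S::AtTOR*, against 4.85%. Both lines are compared with the same 3 WT samples, so these results are not independent.

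Re-watered *GC::AtTOR* had 36.0, 78.9 and 76.0 normalized counts of *NUC-L2*, and *35S::AtTOR* had 112, 95.5 and 74.4, against 244 to 337 in WT. Neither line overlapped WT, and *NUC-L2* was 4.71-fold lower in *GC::AtTOR* and 3.07-fold lower in *35S::AtTOR* (limma adjusted p = 4.18e-06 and 2.20e-04). *FIB2* had 255, 316 and 286 normalized counts with the guard cell promoter and 451, 452 and 391 with the 35S promoter, against 847 to 1086 in WT, 3.26-fold and 2.16-fold lower. *APUM24* had 407, 353 and 297 with the former and 429.8, 379 and 394 with the latter, against 812 to 1032 in WT, and was 2.52-fold and 2.20-fold lower. For these genes the highest sample of either line was below the lowest WT sample.

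The core C/D box protein genes were lower as well. *NOP56* had 1216, 1110.4 and 948 normalized counts in re-watered *GC::AtTOR* leaves and 1765, 1911 and 1484 in those of *35S::AtTOR*, with log2 differences from WT of −1.18 ± 0.11 and −0.53 ± 0.11 (limma adjusted p = 4.51e-08 and 6.82e-04). AT5G27120 differed from WT by −1.53 ± 0.13 for *GC::AtTOR* and −0.76 ± 0.13 for *35S::AtTOR*. AT3G05060 had 739.6, 652 and 599 normalized counts for *GC::AtTOR* and 884, 1001 and 783 for *35S::AtTOR*, below every WT sample. *GC::AtTOR* samples also lay below every *35S::AtTOR* sample for all 3 of these genes, a difference between the lines that was not tested.

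*FIB1* and *CBF5* differed least. *FIB1* had 1626, 1843 and 1614 normalized counts in re-watered *GC::AtTOR*, below the 2154 to 2356 of WT, and 2434, 1936 and 1928 in *35S::AtTOR*, which overlapped WT. Its log2 difference from WT was −0.41 ± 0.12 in *GC::AtTOR* (limma adjusted p = 0.00895) and −0.11 ± 0.12 in *35S::AtTOR* (limma adjusted p = 0.517). *CBF5* had 1157, 1045 and 899.6 in *35S::AtTOR*, below the WT samples, with an adjusted p of 0.0615 by limma. It passed at 0.0347 without *35S::AtTOR* re-watered replicate 1, the shallow library, which brought the members called to 8. In *GC::AtTOR* all 9 members were called whichever single library was left out.

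The response itself was then compared between genotypes, as the change from well-watered leaves in a line minus that in WT. For re-watering, 9 of 9 members had a lower response in *GC::AtTOR*, against 16.2% of all genes, and 8 of 9 in *35S::AtTOR*, against 17.9%. The largest differences were those of *NUC-L2*, −2.96 ± 0.42 for *GC::AtTOR* and −2.51 ± 0.42 for *35S::AtTOR* on the log2 scale (limma adjusted p = 2.30e-05 and 1.26e-04). *APUM24* differed by −1.56 ± 0.15 and −1.53 ± 0.15, and the smallest differences were those of *FIB1*, −0.47 ± 0.17 and −0.32 ± 0.17, the second of which did not pass. The call of *FIB1* in *GC::AtTOR* was lost without any 1 of 7 libraries (limma adjusted p 0.0519 to 0.116), and that of *CBF5* in *35S::AtTOR* without any 1 of 8 (0.0515 to 0.104). Without the shallow library the count in *35S::AtTOR* was again 8.

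For drought, no member responded differently in *GC::AtTOR*, against 0.0373% of all genes responding more and 0.208% responding less by limma, and none had an unadjusted p under 0.05. The count was also 0 by edgeR and by DESeq2 on the recovered reads. In *35S::AtTOR* 3 of 9 members, *NUC-L1*, *NUC-L2* and AT5G27120, responded less than in WT, against 2.79% of all genes. Their differences were −0.50 ± 0.15, −1.48 ± 0.42 and −0.70 ± 0.18 on the log2 scale (limma adjusted p = 0.0412, 0.0379 and 0.0244). Leaving out 1 library at a time gave 0 to 3 members, and 0 without WT well-watered replicate 3, *35S::AtTOR* well-watered replicate 2, WT drought replicate 3 or *35S::AtTOR* drought replicate 1 or 2. The count was 1 without WT well-watered replicate 2 or *35S::AtTOR* well-watered replicate 1.

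Before re-watering few members passed the test between genotypes. In well-watered leaves no member differed between *GC::AtTOR* and WT by limma, against 1.18% of all genes higher and 0.245% lower, and 2 members had an unadjusted p under 0.05. It was 0 of 9 by edgeR and DESeq2 too. *GC::AtTOR* well-watered replicate 3 had the highest value of its group in 8 of 9 members, for example 329.8 normalized counts of *FIB2* against 147 and 162. In *35S::AtTOR* 2 of 9 members were higher than in well-watered WT, against 5.26% of all genes, and 5 had an unadjusted p under 0.05. All 9 log2 differences were above 0, with a median of 0.28, and 5 members were called with equal sample totals or with the compared groups alone. The 2 that passed were AT5G27120, with 467, 488 and 470.4 normalized counts against 316 to 363, and *APUM24*, with 303, 332 and 334 against 232 to 274. Neither overlapped WT, and they were 1.37-fold and 1.31-fold higher (limma adjusted p = 0.0262 and 0.0242). Both calls were lost without WT well-watered replicate 2 or 3 or *35S::AtTOR* well-watered replicate 2, and AT5G27120 and *APUM24* also missed the threshold without *35S::AtTOR* well-watered replicate 3 while *NUC-L2* then passed (adjusted p = 0.0462), so the count ran from 0 to 3.

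Under drought no member differed from WT in either line by limma, edgeR or DESeq2. For *GC::AtTOR* 0.0106% of all genes were higher and 0.00532% lower, and no member had an unadjusted p under 0.05. For *35S::AtTOR* 2.31% of all genes were higher and 0.607% lower, and 2 members had an unadjusted p under 0.05. The standard error was large for the low gene *NUC-L2*, whose log2 difference was −0.58 ± 0.30 in *35S::AtTOR* (limma adjusted p = 0.324). It was small for AT3G05060, at −0.03 ± 0.10.

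Within the paralog pairs the balance shifted with water treatment. In WT *FIB2* held 13.8 ± 0.457% (SD, n = 3) of the normalized counts of both fibrillarin genes when well-watered, 14.6 ± 0.113% under drought and 29.4 ± 3.20% after re-watering. In the 6 groups of the *AtTOR* lines its mean share was 13.6 to 17.1%, and no sample of them exceeded 18.9%, while the lowest re-watered WT sample had 26.4%. *NUC-L2* held 0.743 ± 0.206% of the nucleolin counts in well-watered WT, 1.60 ± 0.166% under drought and 4.15 ± 0.341% after re-watering, while the re-watered lines had 1.85 ± 0.754% (*GC::AtTOR*) and 2.29 ± 0.429% (*35S::AtTOR*). In the nucleolin and fibrillarin pairs alike, the WT drought samples already lay above the well-watered ones without overlap, and the larger shift came after re-watering. The step under drought was narrow in the fibrillarin pair, from at most 14.2% to at least 14.5%. AT5G27120 held 36.9 ± 1.97% in well-watered WT, 57.2 ± 1.73% under drought and 60.5 ± 0.631% after re-watering, so it became the larger of the pair already under drought. The same crossing was seen in *GC::AtTOR*, with 39.97 ± 1.99%, 55.9 ± 1.73% and 51.1 ± 1.16%, and in *35S::AtTOR*, with 41.6 ± 0.975%, 53.6 ± 0.413% and 57.1 ± 1.03%. Shares were not tested, and they depend on how reads shared by paralogs were assigned.

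**Figure D3:**
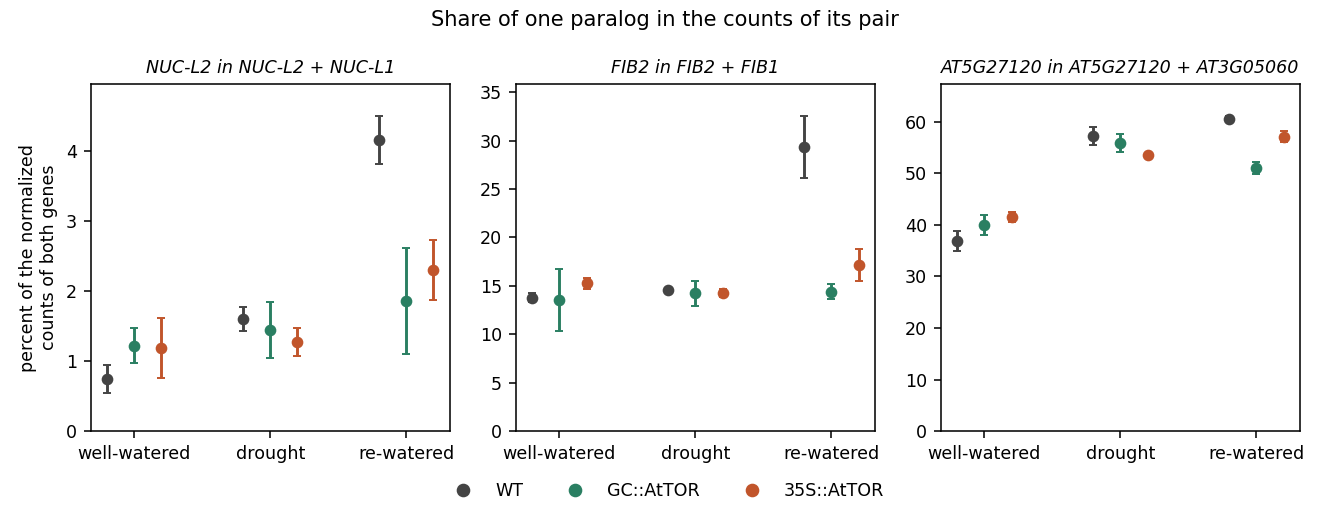
Share of the paralog that was less abundant in well-watered WT in the normalized counts of its pair (vertical axis, percent, from 0), as mean and SD of 3 samples, by water treatment (horizontal axis) and genotype (colours). Re-watered WT stands apart for *NUC-L2* at 4.15% and *FIB2* at 29.4%, while the share of AT5G27120 had already risen under drought, to 57.2% for WT, 55.9% for *GC::AtTOR* and 53.6% for *35S::AtTOR*.

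Other genes of ribosome production were read beside the members. Of 12 small-subunit processing genes, whose products cut and fold the precursor of the small subunit RNA, 9 rose under drought in WT and 12 rose after re-watering, with median log2 fold changes of 0.53 and 1.21. In re-watered leaves 11 of 12 were lower in *GC::AtTOR* and 10 of 12 in *35S::AtTOR*, both against WT, with medians of −0.84 and −0.66. *TOZ* and *SWA1*, both parts of the processome of the small subunit, were 1.46 ± 0.13 and 1.45 ± 0.20 higher on the log2 scale in re-watered than in well-watered WT. The adenine dimethylase gene *DIM1A* was the exception in both lines, at 0.23 ± 0.13 in *GC::AtTOR* against WT and 0.30 ± 0.13 in *35S::AtTOR* against WT, neither past the threshold, and *RH36* did not pass in *35S::AtTOR* either.

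Of 13 large-subunit processing genes, 9 rose and 1 fell under drought in WT, and 11 rose and 1 fell after re-watering, with median log2 fold changes of 0.43 and 0.81. Against re-watered WT, 7 of 13 were lower in *GC::AtTOR* and 8 of 13 in *35S::AtTOR*, with medians of −0.49 and −0.55. *MDN1*, an AAA-type ATPase that remodels large-subunit precursors, rose by 1.35 ± 0.11 on the log2 scale in re-watered WT, and the cytoplasmic GTPase gene *LSG1-2* by 1.32 ± 0.10. Both genes for the largest subunits of RNA polymerase I, *NRPA1* and *NRPA2*, rose after re-watering in WT, by 1.60 ± 0.11 and 1.52 ± 0.10, and were lower in both lines, at −1.29 ± 0.11 and −1.11 ± 0.10 for *GC::AtTOR* and −1.31 ± 0.11 and −1.27 ± 0.10 for *35S::AtTOR*.

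All 3 plant-specific nucleolar histone deacetylase genes rose after re-watering in WT, with *HDT1* at 1.78 ± 0.17, and were lower in re-watered *GC::AtTOR* and *35S::AtTOR*, with *HDT1* at −1.09 ± 0.17 and −0.46 ± 0.17 against WT. Of 2 further snoRNP genes, the H/ACA protein gene *NOP10* and the assembly factor gene *NUFIP* both rose in re-watered WT and were lower in *GC::AtTOR*, while *NOP10* did not pass in *35S::AtTOR* (0.04 ± 0.14). The shares of members and of these lists stand beside the same background. Of all genes, 23.9% were higher in WT under drought and 31.7% after re-watering, and 20.9% and 19.6% were lower in the re-watered lines. No test of the lists against other genes was made. The lists were kept only where a locus and symbol were paired in the table of names, which left 12 of 19, 13 of 20 and 2 of 5 entries for the small-subunit, large-subunit and further snoRNP lists.

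**Figure D4:**
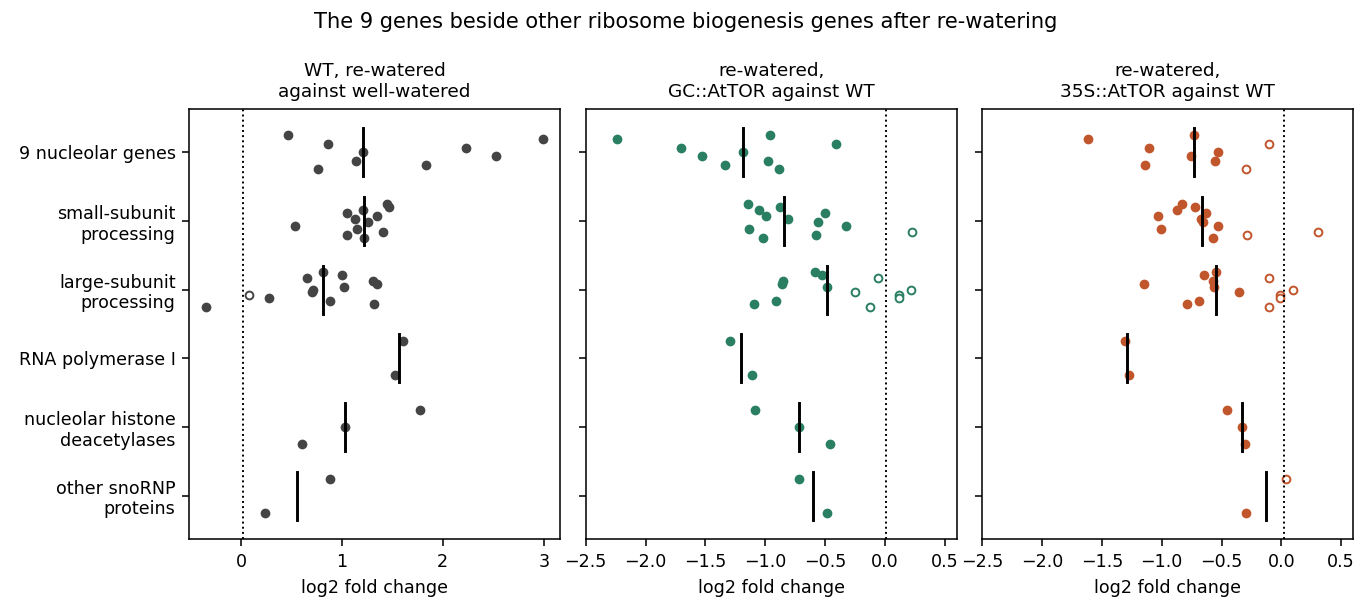
Log2 fold change (horizontal axis) of each gene of the 9 members and of 5 other lists (vertical axis) in re-watered against well-watered WT (left) and in re-watered *GC::AtTOR* (middle) and *35S::AtTOR* (right) against WT. Black bars mark list medians, dotted lines the median of all genes tested, and filled points passed the limma test. List medians in WT run from 0.56 to 1.56, and those of the lines lie below 0.

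Markers of cell types were read in the same samples, since leaf composition could differ between groups. The 3 mesophyll markers summed to 474031 to 535574 normalized counts in well-watered WT, 176114 to 211260 under drought and 94873 to 113952 after re-watering, and all 3 were lower in re-watered than in well-watered WT. After re-watering they summed to 260359 to 296918 for *GC::AtTOR* and 132734 to 200447 for *35S::AtTOR*, with 3 of 3 and 1 of 3 higher than in WT. The 7 markers of dividing cells summed to 404 to 662 in well-watered WT, 203 to 230.3 under drought and 136 to 149.8 after re-watering, with 5 of 7 lower under drought and 6 of 7 lower after re-watering. In re-watered leaves they summed to 160.4 to 385 for *GC::AtTOR* and 185 to 266 for *35S::AtTOR*, with 5 and 1 of 7 higher than in WT. In WT the markers of dividing cells that passed fell while the nucleolar genes rose, and in re-watered *GC::AtTOR* those that passed were higher than in WT. In *35S::AtTOR* only *PCNA1* passed. Many other genes moved in the same directions as these markers. Among all calls in WT, 46.1% were higher under drought and 50.5% after re-watering, so falling genes were about as many as rising ones. For re-watered lines against WT, the higher share of calls was 52.0% with the guard cell promoter and 50.3% with the 35S promoter. The 1 of 3 and 1 of 7 markers with the 35S promoter are therefore not read as a result. The 4 guard cell markers summed to 551 to 728 normalized counts in re-watered WT, 307 to 651 for *GC::AtTOR* and 335 to 341 for *35S::AtTOR*. Of these markers, 1 of 4 and 2 of 4 were lower than in WT, against 20.9% and 19.6% of all genes. In WT 3 of 4 were lower and *GORK* higher under drought, and *GORK* alone passed, as higher, after re-watering. Of 3 phloem markers, *SUC2* and *APL* were higher and *SEOR1* lower (−1.71 ± 0.26) in re-watered than in well-watered WT, and *SEOR1* was higher in re-watered *GC::AtTOR* (1.76 ± 0.26) and *35S::AtTOR* (0.97 ± 0.26) than in WT, while *SUC2* was lower in re-watered *35S::AtTOR* than in WT. Of 3 xylem markers, *IRX3* (−1.59 ± 0.38) and *XCP1* (−2.20 ± 0.76) were lower in re-watered WT, and *IRX3* was higher in *GC::AtTOR* (1.49 ± 0.38). Both epidermis markers tested were lower in drought and re-watered WT, and *ATML1* was lower in re-watered *35S::AtTOR* than in WT. No marker was at 0 in a whole group except *PDF1* of the epidermis in re-watered WT, and the part of any of these changes in the results was not tested.

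Over the 27 samples the members moved together to different degrees. Pearson correlations between their log2(normalized count + 1) values, over samples that share treatments and groups, ran from 0.17 for *NUC-L1* and *APUM24* to 0.97 for *NOP56* and AT3G05060, with a median of 0.79 over 36 pairs. Among 14554 other genes whose mean reached 100 in some group, the profile closest to the mean standardized profile of the members was that of *NSN1* (AT3G07050), which encodes a nucleolar GTP-binding protein, with r = 0.97. The nucleolar histone deacetylase gene *HD2B* (AT5G22650, also called *HDT2*) followed at 0.97, and *HDT1* (AT3G44750) stood eighth at 0.95. The other genes among the closest 10 were annotated as an rRNA processing protein-like protein (AT3G22660), methyltransferases (AT4G26600 and AT4G25730), a transferase of glycosyl groups (AT5G06550), a KH domain RNA-binding protein (AT3G13230), a putative DEAD-box RNA helicase (AT1G77030) and a Noc2p family protein (AT2G18220), with r from 0.94 to 0.97. These correlations describe the same samples and were not tested.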

How the data were processed

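Leaf RNA was sequenced as paired reads from TruSeq libraries on a NovaSeq. Trimmomatic, STAR, Salmon and tximport took the authors' reads from trimming, through alignment to TAIR10, to gene totals. The submitters' processing notes add CASAVA and DESeq2, and versions are not given in the sources used here. Whether counting used strand is not given either. The deposited values are a signal, the count of each gene scaled by a size factor per sample and not by length. Dividing each sample by its smallest step gave whole reads, within a tolerance of 0.1 reads, for 100% of values in 26 samples. In *35S::AtTOR* well-watered replicate 1 100% of values were whole too, but its step of 1.003 was too close to 1 for recovery to be accepted. It was left out of the count tests, which had 2 samples in that group.

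Groups came from the sample titles. Genes whose mean reached 10 in any group (18785) entered limma 3.58.1 under R 4.3.3 as log2(normalized count + 1). The model had 1 mean for each of 9 groups, leaving 18 residual degrees of freedom, and eBayes used a trend. The 19 comparisons were drought and re-watered against well-watered leaves and re-watered against drought leaves in each genotype, each line against WT in each treatment, and, for both treatments, the response of a line minus the WT response. Benjamini-Hochberg adjustment ran over all genes tested within a comparison, at a threshold of 0.05. The study used DESeq2, with a log2 fold change beyond 1 for a DEG. The labels do not say that replicates are separate plants, so p-values measure the spread between these samples. The test was checked on simulated data.

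The named genes were the 9 members, *TOR*, genes of the lists and the 10 genes with the most similar profile, with list examples taken as those with the largest change. Members, lists and tests were chosen with earlier results of these data known. Of 73 list entries, with *TOR* included and the members not, 56 were kept. As alternatives, the added 1 became 0.5 or 5, the minimum mean became 0 or 50, the fit took the compared groups alone, a block was added for replicate or library number, samples were scaled to equal totals, the study's thresholds were used, each replicate was left out, and the recovered reads went through DESeq2 1.42.0 and edgeR 4.0.16. Sequences were read from RefSeq TAIR10.1, a later release than the authors' build, and the deposited table holds no coordinates.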

Additional observations from a re-analysis of the deposited data

Results flagged for a closer look

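The responses of these genes differed between genotypes by the test of the difference itself, in limma with Benjamini-Hochberg adjustment over all genes. Given as the response of the line minus that of WT on the log2 scale, the difference after re-watering in *GC::AtTOR* was −0.97 for *NUC-L1*, −2.96 for *NUC-L2*, −0.47 for *FIB1*, −1.71 for *FIB2* and −1.20 for *NOP56*. It was −1.68 for AT5G27120, −0.94 for AT3G05060, −1.56 for *APUM24* and −0.88 for *CBF5*. In *35S::AtTOR* it was −0.99 for *NUC-L1*, −2.51 for *NUC-L2*, −1.49 for *FIB2*, −0.81 for *NOP56*, −1.22 for AT5G27120, −0.73 for AT3G05060, −1.53 for *APUM24* and −0.47 for *CBF5*. Both lines are set against the same WT samples.

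Under drought the response in *35S::AtTOR* was smaller than in WT by a difference of −0.50 for *NUC-L1*, −1.48 for *NUC-L2* and −0.70 for AT5G27120. The call of *NUC-L1* was lost without any 1 of 9 libraries (limma adjusted p 0.0663 to 0.115). That of *NUC-L2* was lost without any 1 of 8 (limma adjusted p 0.05355 to 0.121). That of AT5G27120 was lost without any 1 of 5 (limma adjusted p 0.05225 to 0.0639).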

How the results depend on the processing

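No member reversed its direction under an alternative where it was called: of 2952 values of single genes, 2822 kept their side of the threshold, 94 lost it and 36 gained it. Counts of members called, in either direction, that moved by over 1.5 times are given here. With the study's DEG thresholds, they were 4 under drought for WT, 4 for *GC::AtTOR* and 0 for *35S::AtTOR*. Of all 18785 genes, 1429 were higher under drought in WT and 1507 in *GC::AtTOR*, while 436 were higher and 1022 lower in *35S::AtTOR*. For re-watered against well-watered leaves they were 0 for *GC::AtTOR* and 1 for *35S::AtTOR*, and for re-watered against drought 3 for WT, 3 for *GC::AtTOR* and 0 for *35S::AtTOR*. For lines against WT the members were 0 in well-watered *35S::AtTOR*, 5 in re-watered *GC::AtTOR* and 3 in re-watered *35S::AtTOR*. Of all genes, 246 were higher and 271 lower in well-watered *35S::AtTOR*, and the shares for re-watered leaves are given above. For responses the members were 1 to drought in *35S::AtTOR*, 5 to re-watering in *GC::AtTOR* and 4 for *35S::AtTOR*. With the compared groups alone, 2 members were called in re-watered against well-watered leaves of *GC::AtTOR*, 5 in *35S::AtTOR* against WT when well-watered and 6 for its response to drought. With equal sample totals, 5 were called in re-watered against drought *35S::AtTOR*, 5 in well-watered *35S::AtTOR* against WT and 7 for its response to drought. That response had 1 without a filter. Equal totals also moved the calls of all genes, as given below. Shares of all genes are not given here for responses by the DEG thresholds or for the other settings. Those counts are therefore not read as a result about the members. With edgeR and DESeq2 no count moved by over 1.5 times, and the largest change was from 8 to 6 members in re-watered against well-watered *35S::AtTOR* with both. The cause of these moves was not tested, except that a DEG must also pass a fold change.

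Equal totals moved the median log2 fold change of all genes, to 0.34 from 0.02 in re-watered against well-watered WT and to 0.24 from −0.03 under drought, with smaller shifts elsewhere. Among all calls, the share that was higher went from 44.5 to 50.5% up to 59.9 to 72.6% in the 6 comparisons with well-watered leaves, from 49.9% to 62.6% for re-watered against drought *35S::AtTOR*, from 48.9% to 77.7% in well-watered *35S::AtTOR* against WT and from 79.2% to 68.8% under drought, where *GC::AtTOR* went from 66.7% of very few calls to 50%. For responses it went from 58.2% to 24.5% for drought in *35S::AtTOR*, from 52.8% to 42.2% for re-watering in *GC::AtTOR* and from 50.04% to 39.5% in *35S::AtTOR*. With equal totals *NUC-L1* was still lower in re-watered than in well-watered leaves of *GC::AtTOR* and *35S::AtTOR*, at −0.28 and −0.30 in place of −0.50 and −0.52, while the medians of all genes stood at 0.24 and 0.21.

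Leaving out single libraries gave 2 to 5 members, *NUC-L1* as lower among them, in re-watered against well-watered leaves of *GC::AtTOR*. It gave 0 to 3 in *35S::AtTOR* against WT when well-watered and 0 to 3 for its response to drought. With the replicate number as a block, the call of *NUC-L1* in the response to drought of *35S::AtTOR* was lost, with an adjusted p of 0.051, and no other call changed, while with the library number as a block 1 member was called there. Deviations of samples from their group means were correlated between groups that share a genotype or a treatment. Same-numbered samples gave −0.281 to 0.503, with 8 of 54 pairs over 0.1. Samples with different numbers gave −0.631 to 0.408, with 15 of 108 pairs over 0.1, so the numbers were not taken to pair the samples. Depth limits *NUC-L2* most, at 25.7 to 46.2 normalized counts in well-watered WT.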
